A study of Mus musculus with 2 samples.

Results

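The eicosanoid synthesis genes are 8 of the 27998 genes in the count matrices of jejunal crypt cells from mice that lack miR-375 (375KO). They were chosen by name, as genes that release arachidonic acid or turn it into leukotrienes and prostaglandins: Pla2g4a, Alox5, Alox5ap, Ltc4s, Ptgs1, Ptgs2, Hpgds and Hpgd. Their transcripts were read in 2 libraries, each from 1 male mouse aged 12 months, across the 10 cell types that the authors annotated. Both mice carried a whole-body deletion of miR-375 made with CRISPR/Cas9 and had been backcrossed to B6 albino mice, while the labels name the strain as C57BL6/2J. Crypts were taken from the jejunum, dissociated with dispase and profiled with the 10x Genomics 3′ v2 kit. No wild-type library was used here, so every comparison is between cell types within the 375KO mice.

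Eicosanoids are short-lived lipid signals made from arachidonic acid, which cytosolic phospholipase A2 (Pla2g4a) cuts out of membrane phospholipids. In the leukotriene branch, 5-lipoxygenase (Alox5) and its helper protein (Alox5ap) oxidise arachidonic acid, and leukotriene C4 synthase (Ltc4s) joins the product to glutathione to give the first cysteinyl leukotriene. In the prostaglandin branch, the cyclooxygenases Ptgs1 and Ptgs2 make prostaglandin H2, haematopoietic prostaglandin D synthase (Hpgds) turns it into prostaglandin D2, and 15-hydroxyprostaglandin dehydrogenase (Hpgd) inactivates prostaglandins. Tuft cells are rare chemosensory cells of the gut epithelium and are known for making both leukotrienes and prostaglandins.

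The 2 libraries held 3275 annotated cells, 2082 of replicate 1 with 44017234 UMIs (unique molecular identifiers, tags that count captured RNA molecules) and 1193 of replicate 2 with 22163354 UMIs. They shared 0 cell barcodes. Mitochondrial transcripts made up a median of 10.2% of the UMIs of a cell in the first mouse and 5.55% in the second. Tuft cells numbered 40 and 38, and all 8 of the tuft markers examined (Dclk1, Trpm5, Il25, Gnat3, Avil, Pou2f3, Sh2d6 and Gng13) were highest in the annotated tuft cells of both mice. Over all types, 52 of 63 markers were highest in their own type in both mice. The share was lower for transit-amplifying cells (3 of 6), secretory progenitors (3 of 5) and goblet progenitors (0 of 5). The authors named clusters of these same cells from published markers of epithelial types, whose genes are not given in the sources used here, so a member gene may have helped to name an epithelial type. The immune genes they used for IEL (intraepithelial lymphocytes) are stated and include none of the members. Levels are given as CPM, UMIs of a gene per 1000000 UMIs of that cell type and mouse, and these levels describe the RNA of the cells caught as that type.

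Of the 8 members, 7 had a UMI in at least 1 annotated cell, and 7 of the 8 matched a promoter entry in RefSeq (GRCm38.p6). On GRCm38 the genes of the leukotriene branch lie at chr6:116410077-116461178 (Alox5), chr5:149264767-149288153 (Alox5ap) and chr11:50236461-50238616 (Ltc4s). Those of the prostaglandin branch lie at chr2:36230426-36252272 (Ptgs1), chr1:150100031-150108227 (Ptgs2), chr6:65117293-65144908 (Hpgds) and chr8:56294585-56321043 (Hpgd). Pla2g4a, at chr1:149829618-149961290, is on the same chromosome as Ptgs2, and all 8 are annotated as protein-coding. The stretches upstream of the start of transcription are shown for Ptgs1, Alox5 and Ltc4s, whose highest level was in tuft cells, and for Hpgd, whose highest level was in enterocytes. They run 5′ to 3′ on the strand of the gene, at chr2:36230176-36230425 (plus strand), chr6:116461179-116461428 (minus strand), chr11:50238617-50238782 (minus strand) and chr8:56294302-56294551 (plus strand). Capitals mark an ETS-type motif (GAGGAAGT) in Ptgs1 and a GC box (GGGCGG, or CCGCCC on the other strand) in Alox5 and Hpgd.
Ptgs1: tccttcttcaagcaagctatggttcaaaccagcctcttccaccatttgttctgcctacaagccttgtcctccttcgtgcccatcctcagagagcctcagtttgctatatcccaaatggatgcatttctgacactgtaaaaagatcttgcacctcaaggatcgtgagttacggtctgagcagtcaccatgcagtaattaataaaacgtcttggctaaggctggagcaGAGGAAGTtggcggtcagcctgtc
Alox5: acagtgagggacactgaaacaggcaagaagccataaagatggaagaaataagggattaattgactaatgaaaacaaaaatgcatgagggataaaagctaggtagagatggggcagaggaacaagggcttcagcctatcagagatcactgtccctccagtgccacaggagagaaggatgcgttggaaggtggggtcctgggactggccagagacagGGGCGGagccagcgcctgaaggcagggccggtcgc
Ltc4s: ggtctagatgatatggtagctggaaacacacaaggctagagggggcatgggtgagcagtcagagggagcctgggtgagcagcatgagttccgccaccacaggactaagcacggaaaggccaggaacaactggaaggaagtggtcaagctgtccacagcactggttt
Hpgd: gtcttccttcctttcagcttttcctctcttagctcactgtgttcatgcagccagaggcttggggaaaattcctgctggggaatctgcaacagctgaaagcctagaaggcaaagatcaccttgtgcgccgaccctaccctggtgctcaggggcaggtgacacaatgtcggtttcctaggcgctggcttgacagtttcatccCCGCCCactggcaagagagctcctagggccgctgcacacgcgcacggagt
Windows of 300 bases, from 250 before to 50 after each RefSeq start, were searched on both strands for these letters, for the octamer ATGCAAAT, which POU factors bind, and for the TATA box TATAAA. The motif GAGGAAGT lay in the windows of Ptgs1 and Hpgds, against 3.2% of 32851 windows of all genes. The octamer was found in the Hpgds window alone among the members and in 1.74% of all windows. In Hpgds the octamer began 174 bases and GAGGAAGT 49 bases before an inner RefSeq start. Both lay within the annotated gene and not upstream of it. GGGCGG was in the windows of Alox5, Hpgd and Ptgs2 and in 35.7% of all windows, and TATAAA was in those of Hpgd and Pla2g4a and in 13.6%. The TATAAA of Hpgd began 4 bases after the start. That of Pla2g4a lay on the other strand, 200 bases before an inner RefSeq start of the gene. The Ltc4s stretch held none of the 4 motifs in these exact letters. These are matches of letters, and no binding was measured here.

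Pla2g4a, Alox5, Alox5ap, Ltc4s, Ptgs1 and Hpgds, 6 of the 8 members, were highest in tuft cells of both mice. In CPM, Hpgd was highest in enterocytes of both mice with all cells taken at full depth. Ptgs2 had no UMI. UMI counts summed per mouse and cell type (20 sums) were fitted with edgeR's quasi-likelihood test, with cell type and mouse as terms, and the 11402 genes tested shared 1 Benjamini-Hochberg adjustment. At an adjusted p under 0.05, 6 of the 8 members were higher in tuft cells than the average over the other 9 types, against 9.65% of all genes tested, and 0 were lower, against 3.48%. Hpgd did not pass the threshold and Ptgs2 was not tested. A gene found in tuft cells alone reaches the test only through them, so the count of members is a description. Tuft cells held 0 UMIs of 8 mast cell markers in either mouse. In replicate 1 and replicate 2 they held 5 and 3 UMIs of 11 myeloid markers and 5 and 14 UMIs of 9 IEL markers. Of 5 B and plasma cell markers they held 3 and 16 UMIs. At 7.25 and 28.6 CPM, that last list was higher in tuft cells than in any other type but IEL.

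**Figure D1:**
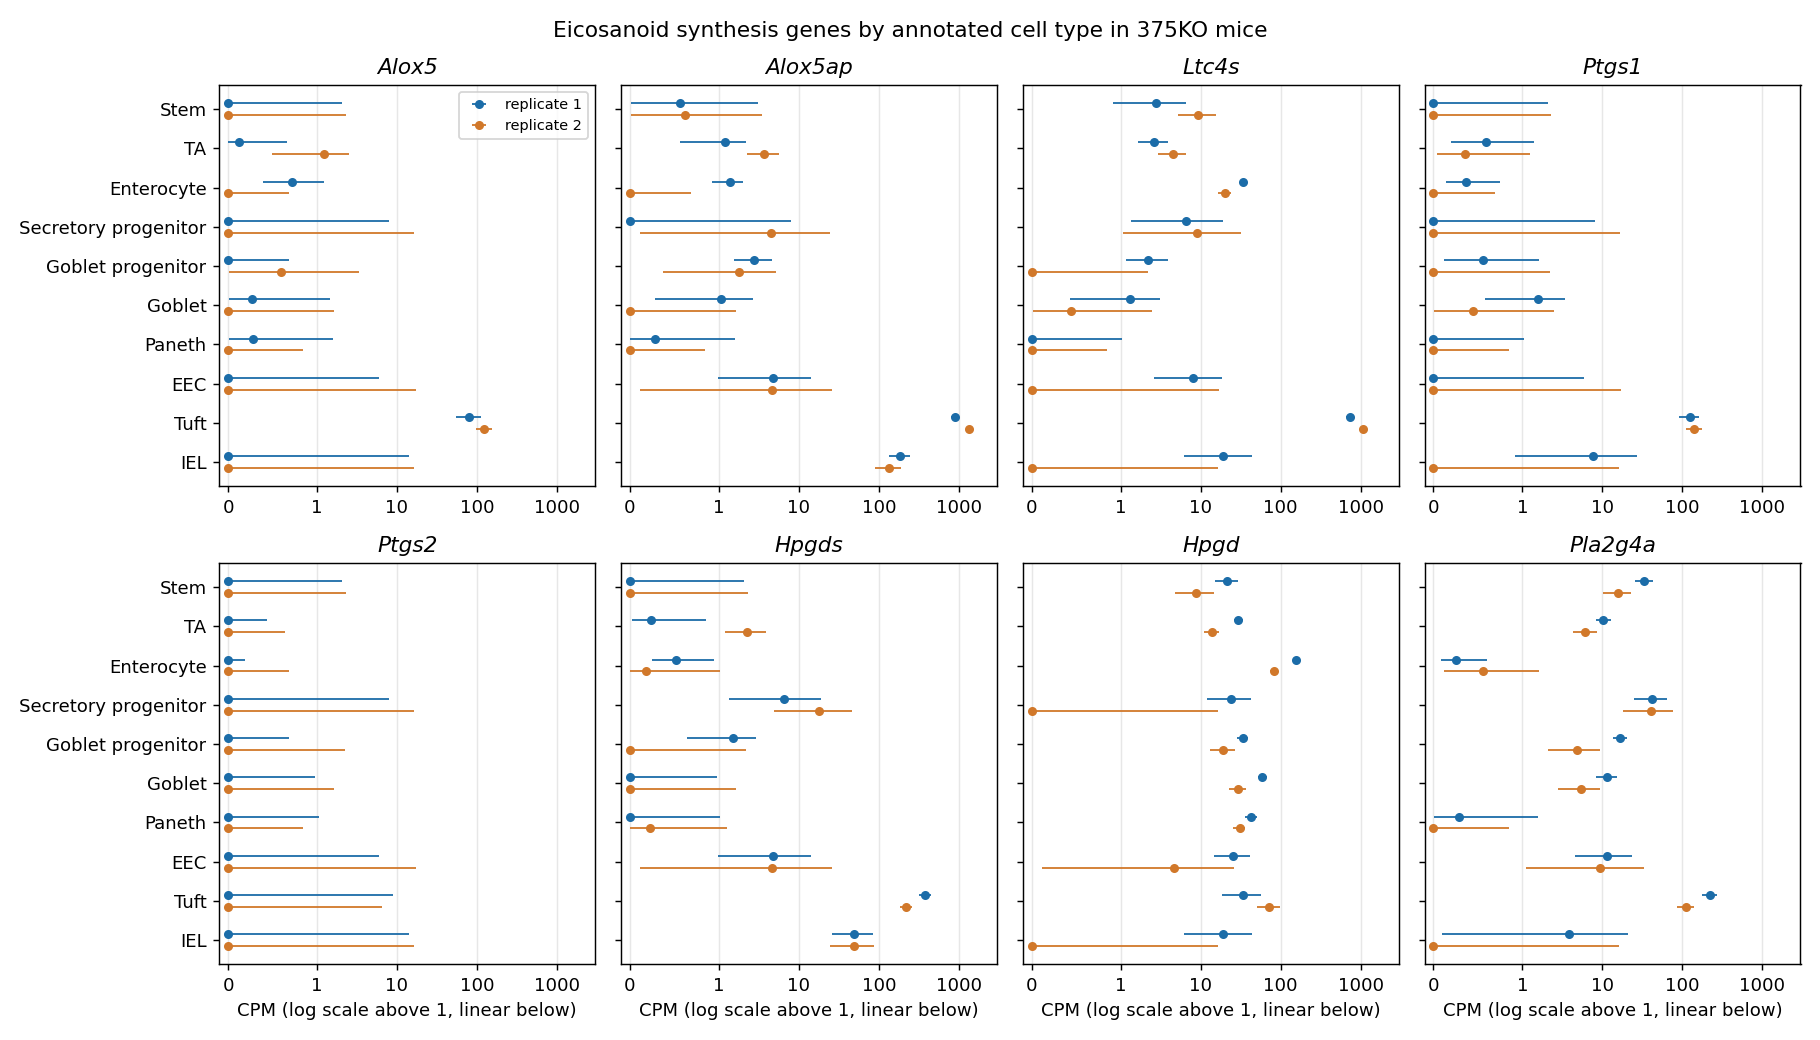
Level of each eicosanoid synthesis gene (CPM, log scale above 1) in each annotated cell type, with 1 point per mouse and 95% Poisson intervals as bars. In it 6 genes peak in tuft cells of both mice, Hpgd peaks in enterocytes at 156 and 82.1 CPM, and Ptgs2 is at 0 throughout.

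Pla2g4a, the phospholipase that supplies both branches, was at 220.1 CPM in tuft cells of replicate 1 and 111 CPM in those of replicate 2. Secretory progenitors came second at 41.3 and 40.2 CPM, followed by stem cells at 33.6 and 15.6 CPM. The tuft values of both mice lay above those of every other type, and the values of secretory progenitors lay above those of stem cells. That second place rested on 3 secretory progenitors with tuft RNA (at least 3 UMIs of the 8 tuft markers), which held 11 of the 28 Pla2g4a UMIs of that type. Without all such cells, secretory progenitors were at 31.2 and 14.6 CPM, below the stem cells of each mouse at 33.6 and 15.2 CPM. The level in tuft cells exceeded the mean of the other types by 4.66 on the log2 scale (SE 0.24, adjusted p = 4.33e-17, edgeR quasi-likelihood test). The smallest of its 9 single differences was that against secretory progenitors (log2 difference 2.00, SE 0.34, adjusted p = 0.000127, edgeR). Goblet progenitors, enteroendocrine cells (EEC), goblet cells and transit-amplifying (TA) cells had mean levels between 8.21 and 10.8 CPM, with ranges of the 2 mice that overlapped from each to the next. Enterocytes held 5 and 3 UMIs of Pla2g4a, 0.258 and 0.561 CPM, and Paneth cells 1 and 0. Tuft cells took up 27.3% of all Pla2g4a UMIs, less than for the other 5 tuft-high members.

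Alox5, the enzyme that opens the leukotriene branch, was at 79.8 CPM in tuft cells of replicate 1 and 123 CPM in those of replicate 2. The next highest value was 1.22 CPM, in TA cells of replicate 2. Stem cells, secretory progenitors, EEC and IEL had 0 UMIs in both mice. Taking 3 UMIs per sum as the limit that a count of 0 allows, the tuft level was at least 47.5-fold and 65.9-fold higher than in stem cells, in replicate 1 and replicate 2. The limit for IEL, which had far fewer UMIs, was at least 6.99-fold and 9.26-fold. The fitted difference against the mean of the other types was 8.98 on the log2 scale (SE 0.63, adjusted p = 6.17e-10, edgeR). That value rests on the prior count where types are at 0, and so does the SE worked back from it. With DESeq2's Wald test, Alox5 no longer passed (7.73, adjusted p = 0.150).

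Alox5ap, the membrane protein that presents arachidonic acid to Alox5, was at 892 CPM in tuft cells of replicate 1 and 1339.5 CPM in those of replicate 2. IEL came second at 183 and 133 CPM, followed by EEC at 4.83 and 4.64 CPM. The 2 mice did not overlap between any of these 3 types, while the 7 lower types overlapped from each to the next. The place of EEC rested on 1 cell with tuft RNA, which held all 3 of the UMIs of replicate 1, and without such cells EEC were at 0 and 4.64 CPM and overlapped the lower types. Tuft cells exceeded the mean of the other types by 8.56 on the log2 scale (SE 0.28, adjusted p = 3.96e-11, edgeR), and IEL by 2.72 (SE 0.42, adjusted p = 0.000348, edgeR). Tuft cells were 2.38% of the cells and gave 87.1% of the Alox5ap UMIs.

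Ltc4s, which makes leukotriene C4, was at 735 CPM in tuft cells of replicate 1 and 1075 CPM in those of replicate 2. Unlike Alox5 and Alox5ap, its second type was the enterocyte, at 34.0 and 20.2 CPM, and Paneth cells had 0 UMIs in both mice. The tuft level was at least 861-fold and 1564-fold higher than the limit that 0 UMIs allows in Paneth cells. Tuft cells exceeded the mean of the other types by 8.04 on the log2 scale (SE 0.36, adjusted p = 6.39e-08, edgeR) and enterocytes by 4.51 (SE 0.45, adjusted p = 2.27e-05, edgeR). The difference against the mean was 7.26 without Paneth cells and 5.89 with the cells of the other types pooled. Enterocytes, 931 of the cells of replicate 1 and 382 of those of replicate 2, held 64.6% and 14.3% of the Ltc4s UMIs, and tuft cells 29.8% and 79.8%.

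Ptgs1, the cyclooxygenase that most tissues make without a stimulus, was at 123 CPM in tuft cells of replicate 1 and 139 CPM in those of replicate 2. IEL of replicate 1 came next with 2 UMIs (7.62 CPM), and IEL of replicate 2 had 0. Stem cells, secretory progenitors, Paneth cells and EEC had 0 UMIs in both mice, which put tuft cells at least 73.3-fold and 74.5-fold above stem cells. The fitted difference against the mean of the other types was 9.02 on the log2 scale (SE 0.46, adjusted p = 4.62e-16, edgeR). Its size also rests on the prior count where types are at 0. Its promoter stretch above is the only printed one with the exact letters GAGGAAGT, which begin 24 bases before the start. Variants of this ETS-type motif were not searched for.

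Ptgs2, the cyclooxygenase known for its induction by inflammatory stimuli, had 0 UMIs in the 3275 annotated cells and also 0 in all the other barcodes of both libraries. Over the 66180588 UMIs of the annotated cells, 0 counts allow a level of up to 0.0453 CPM. In tuft cells the limit was 7.25 CPM in replicate 1 and 5.36 CPM in replicate 2, so a low level there was not detectable at this depth.

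Hpgds, which makes prostaglandin D2 from the product of Ptgs1, was at 379.7 CPM in tuft cells of replicate 1 and 219.7 CPM in those of replicate 2. IEL followed at 49.5 and 48.8 CPM, secretory progenitors at 6.52 and 17.9 CPM, and EEC at 4.83 and 4.64 CPM. The 2 mice did not overlap between any of these 4 types. Of the 7 Hpgds UMIs of secretory progenitors, 6 lay in 2 cells with tuft RNA, and without such cells the type was at 2.23 and 0 CPM, below EEC at 4.99 and 4.64 CPM. Tuft cells exceeded the mean of the other types by 7.85 on the log2 scale (SE 0.36, adjusted p = 3.43e-11, edgeR), secretory progenitors by 4.75 (SE 0.62, adjusted p = 8.87e-05, edgeR) and IEL by 2.51 (SE 0.49, adjusted p = 0.0011, edgeR). Stem cells and goblet cells had 0 UMIs in both mice, so the size of the difference against the mean also rests on the prior count.

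Hpgd, the enzyme that inactivates prostaglandins, followed another order. It was at 156 and 82.1 CPM in enterocytes, at 33.9 and 71.4 CPM in tuft cells, at 59.5 and 29.5 CPM in goblet cells and at 43.0 and 30.7 CPM in Paneth cells. The enterocyte values lay above those of every other type, and from tuft cells down each type overlapped the next. In replicate 2 that order turned with the processing, with tuft cells at 105 CPM and enterocytes at 85.3 CPM once cells were thinned to 5000 UMIs, and at 74.7 and 70.0 CPM with a stricter cell filter (at most 10% mitochondrial UMIs and at least 2000 genes). The lowest means of the 2 mice were in secretory progenitors (23.9 and 0 CPM) and IEL (19.04 and 0 CPM). The 0 UMIs of replicate 2 allow up to 13.4 CPM in secretory progenitors and 13.3 CPM in IEL. Stem cells were at 21.3 and 8.73 CPM, so the order of these low types is not resolved. Against the mean of the other types, the tuft difference missed the threshold (log2 difference 0.67, SE 0.43, adjusted p = 0.407, edgeR). Within single mice, as a difference of scaled log2 CPM with a prior count of 2 and not a fit, it was -0.64 in replicate 1 and 2.36 in replicate 2. Among the single types, tuft cells were higher than stem cells (1.78, SE 0.55, adjusted p = 0.0366, edgeR) and lower than enterocytes (-1.497, SE 0.42, adjusted p = 0.0122, edgeR), while 10.3% of all genes tested were higher than in stem cells and 19.2% lower than in enterocytes. They were also called lower than Paneth cells (-2.76, SE 0.44, adjusted p = 0.000272, edgeR), as were 11.1% of all genes tested, and here the scaling mattered. The TMM factors of the Paneth sums were 0.151 and 0.117, against 0.919 to 1.54 for the other types, and in CPM the tuft value was below the Paneth value in replicate 1 and above it in replicate 2. On the scale of the fits, tuft cells lay further below Paneth cells than below enterocytes, so enterocytes ranked highest in CPM only.

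Type by type, the other 6 tested members were higher in tuft cells in 54 of 54 comparisons. Of all genes tested, 4.32% were higher in tuft cells than in secretory progenitors, 5.74% than in EEC, 9.47% than in goblet progenitors, 9.88% than in goblet cells, 10.3% than in stem cells and also than in Paneth cells, 12.1% than in TA cells, 12.3% than in IEL and 15.8% than in enterocytes. These comparisons share the tuft sums. Alox5 and Ptgs1 reached the test only through those sums, so the count of 54 is a description. The smallest differences were 2.00 for Pla2g4a (secretory progenitors), 2.51 for Hpgds (IEL), 2.72 for Alox5ap (IEL), 4.51 for Ltc4s (enterocytes), 4.97 for Ptgs1 (IEL) and 6.17 for Alox5 (Paneth cells), all on the log2 scale. The Paneth value for Alox5 passes through the low TMM factors, since in CPM Paneth cells were at 0.284 and 0 and TA cells at 0.118 and 1.22.

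Single tuft cells carried RNA of both branches. Alox5ap had a median of 9.5 UMIs per tuft cell in replicate 1 and 21 in replicate 2, and Ltc4s 7 and 15.5. Hpgds had medians of 3.5 and 3, and Pla2g4a 2 and 1. Alox5 was seen in 16 of 40 and 23 of 38 tuft cells, and Ptgs1 in 19 of 40 and 29 of 38, so both often had 0 UMIs in a cell. Every tuft cell had a UMI of at least 3 of the 6 tuft-high members, and 16 of 78 had all 6. Of the 3197 cells of other types, 0 had a UMI of all 6, a count of cells with UMIs that does not limit how many express them.

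Alox5ap and Ltc4s were found together in 36 of 40 and 37 of 38 tuft cells, against 10 of 2042 and 3 of 1155 cells of the other types. Ptgs1 and Hpgds were found together in 18 of 40 and 28 of 38 tuft cells, against 3 of 2042 and 0 of 1155 other cells. The joint presence of the leukotriene trio (Alox5, Alox5ap and Ltc4s) with Ptgs1 and Hpgds was seen in 9 and 18 tuft cells and in 1 other cell. Cells with more UMIs show more genes, and tuft cells had a median of 8630 UMIs in replicate 1 and 13016.5 in replicate 2.

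**Figure D2:**
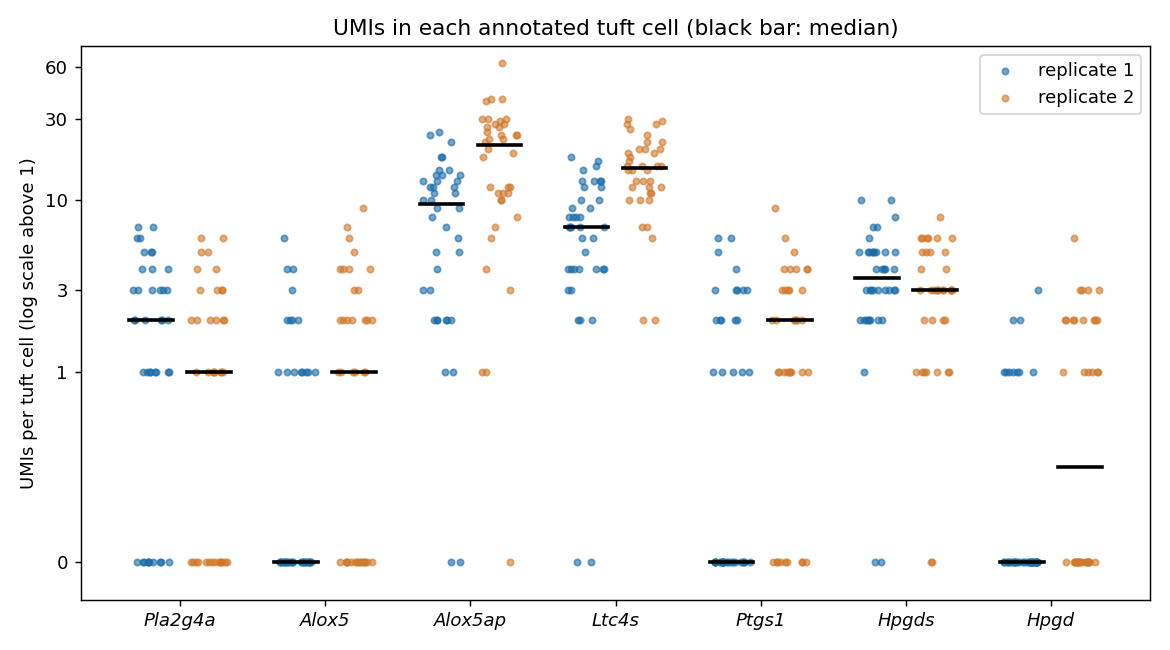
UMIs of 7 members in each annotated tuft cell (log scale above 1), 40 cells of replicate 1 and 38 of replicate 2, with the median of each mouse as a black bar. Alox5ap and Ltc4s are present in nearly every tuft cell, with medians of 9.5 and 7 UMIs in replicate 1 and 21 and 15.5 in replicate 2, whereas Alox5 and Ptgs1 are missing from many.

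To compare shares of cells at 1 depth, each cell was thinned to 5000 UMIs and cells below that were left out, among them 1 tuft cell and 39 IEL of replicate 1. Alox5ap was then present in 92.3% and 89.5% of tuft cells, Ltc4s in 92.3% and 97.4%, and Hpgds in 82.1% and 73.7%. Pla2g4a was present in 61.5% and 31.6%, Ptgs1 in 38.5% and 47.4%, Alox5 in 28.2% and 42.1%, and Hpgd in 12.8% and 28.9%. Ptgs1 and Hpgds were then found together in 35.9% and 28.9% of tuft cells, against 45% and 73.7% before thinning, so replicate 2 was no longer the higher. The leukotriene trio with Ptgs1 and Hpgds was left in 11 of 77 tuft cells, and all 6 members in 3 of 77. Paneth cells, with far deeper libraries (medians of 44683.5 and 80820 UMIs), had a thinned share of 0% for each of these genes except Hpgd, at 23.1% and 16.7%. The unthinned tuft shares were 95% and 97.4% for Alox5ap, 75% and 63.2% for Pla2g4a and 40% and 60.5% for Alox5.

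Outside the tuft cells, much of the RNA of the tuft-high members lay in a few cells. Of the 3197 cells of other types, 28 had at least 3 UMIs of the 8 tuft markers. These 28 cells held 23 of the 25 Alox5 UMIs outside tuft cells, 15 of the 26 of Ptgs1, 25 of the 70 of Hpgds and 52 of the 166 of Alox5ap. Ltc4s and Pla2g4a were spread more widely, with 84 of 868 and 21 of 407 UMIs in the 28 cells. TA cells held 11 of the 28 and enterocytes 7. The source of the tuft RNA in them was not tested.

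The IEL signal of Alox5ap came from 1 of the 2 clusters annotated as IEL. Cluster 11 (28 cells of replicate 1 and 5 of replicate 2) had a Cd3 transcript in every cell and 0 UMIs of Alox5ap. Cluster 14 (22 and 13 cells) held all 48 and 30 Alox5ap UMIs, in 17 and 6 cells, and had a Cd3 transcript in 0 of 22 and 4 of 13 cells. Cd3 transcripts were thus missing from most cells of cluster 14, while 14 of 22 and 7 of 13 had at least 3 UMIs of the 9 IEL markers, and it is called by its number here. It carried 852 UMIs of mast cell markers in replicate 1, where 1 cell had 3 or more of them, with 507 UMIs of myeloid markers, and 1352 UMIs of B and plasma cell markers in replicate 2. In replicate 1, 27 of the 48 Alox5ap UMIs lay in 10 of the 13 cells with fewer than 3 UMIs of each of these lists (mast, myeloid, and B and plasma cell). In replicate 2, 17 of the 30 lay in 3 of the 8 cells placed by B and plasma cell markers. Of the rest, 3 lay in 2 cells placed by myeloid markers and 10 in 1 of the 3 cells placed by none of the lists. Hpgds was found in both clusters, with 5 and 1 UMIs in cluster 11 and 8 and 10 in cluster 14.

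**Figure D3:**
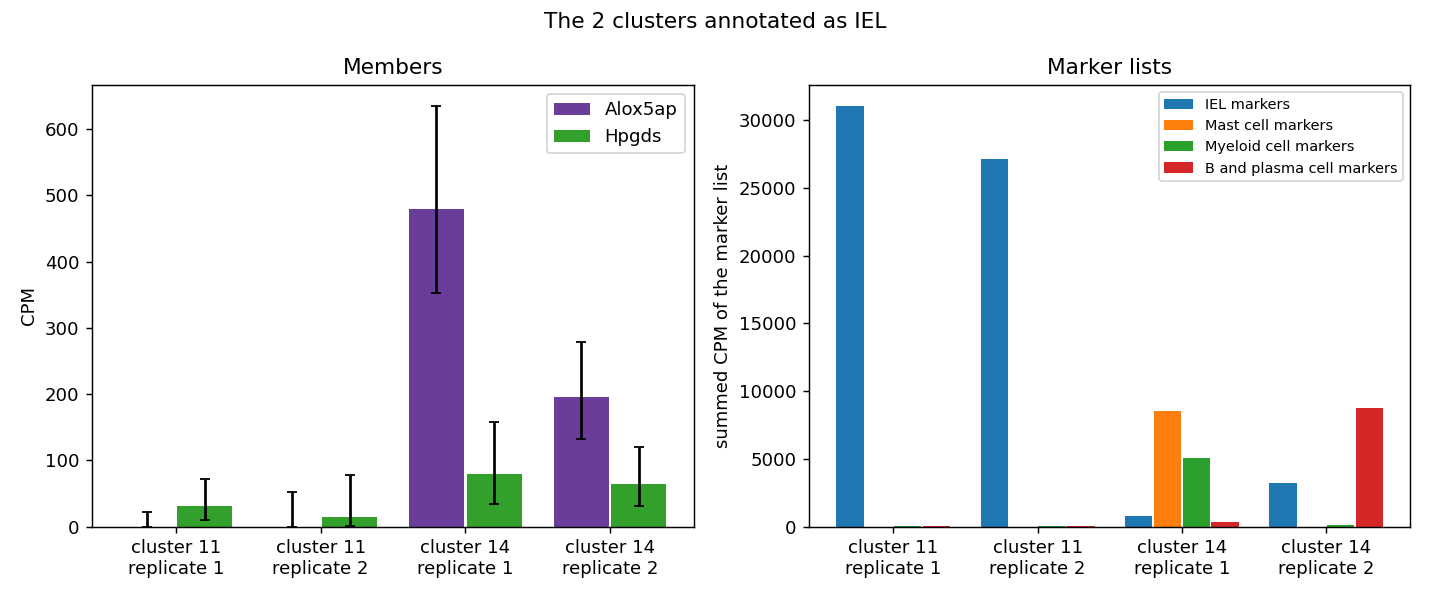
Levels in the 2 clusters annotated as IEL, for Alox5ap and Hpgds (left, CPM with 95% Poisson intervals) and for the summed markers of 4 immune cell kinds (right, CPM), with 1 bar per cluster and mouse. Alox5ap is at 0 in cluster 11 and present in cluster 14, where the IEL markers are low.

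Enterocytes, the absorptive cells, were next compared with the other types. Of the 8 members, 2 (Hpgd and Ltc4s) were higher than in the mean of the other 9 types, against 30.4% of all genes tested, and 1, Pla2g4a, was lower, against 18.9%. The log2 difference was 2.33 for Hpgd (SE 0.24, adjusted p = 8.21e-07, edgeR), 3.03 for Ltc4s (SE 0.51, adjusted p = 0.000547) and -4.76 for Pla2g4a (SE 0.71, adjusted p = 7.01e-07). Within single mice, the Pla2g4a difference was -3.93 in replicate 1 and -2.47 in replicate 2. These 2 values are differences of scaled log2 CPM with a prior count of 2 and not fits, so their size is not comparable with that of the fitted value. With the other cells pooled, so that tuft cells enter by their UMIs, the Ltc4s difference was 0.26 (adjusted p = 0.866, edgeR). With the stricter cell filter, the level of Ltc4s in enterocytes was 9.76 and 14.8 CPM, a mean of 12.3 against 27.1 CPM, and that of Hpgd was 80.4 and 70.0 CPM. The other 4 tested members had few UMIs in enterocytes (7 to 27 in replicate 1 and 0 or 1 in replicate 2) and did not pass. For Alox5ap and Hpgds that call depended on the setting, as Alox5ap passed as lower in 4 of 11 alternatives (-3.80 without cells with tuft RNA, adjusted p = 9.84e-05, edgeR) and Hpgds in 2 (-2.41 by DESeq2's Wald test, adjusted p = 0.00815). Against TA cells, the dividing cells that enterocytes arise from, Hpgd and Ltc4s were again higher (2.87 and 3.43 on the log2 scale, adjusted p = 4.96e-06 and 0.00042, edgeR) and Pla2g4a lower (-4.25, adjusted p = 4.83e-10). In that comparison 27.1% of all genes tested were higher and 20.6% lower. In CPM, TA cells had Hpgd at 29.7 and 13.8, Ltc4s at 2.61 and 4.55, and Pla2g4a at 10.3 and 6.12.

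Enterocytes formed 5 clusters, and these clusters, made from the same counts, differed in both genes. Hpgd was at 255 and 232 CPM in cluster 1, at 170 and 88.2 in cluster 3, at 151 and 82.4 in cluster 9, at 102 and 44.5 in cluster 6, and at 50.6 and 21.6 in cluster 2. Ltc4s was at 78.5 and 80.4 CPM in cluster 1 and at 40.9 and 20.3 in cluster 3, and stayed under 9.03 CPM in clusters 2, 6 and 9 of both mice. Cluster 1 was the highest and cluster 2 the lowest for both genes in each mouse. Cluster 1 also had the highest levels of Apoa4 and Fabp1, lipid-handling genes of mature enterocytes (7011 and 5387 CPM for Apoa4, against 25.1 and 11.8 in cluster 2). Its mitochondrial share was 15.1% and 9.65%, against 10.2% and 5.89% in cluster 2, and the part of that difference in these levels was not tested. Cluster 1 held 30.3% of the enterocytes of replicate 1 and 18.8% of those of replicate 2, while its own levels of Hpgd and Ltc4s were closer between mice than those of all enterocytes.

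**Figure D4:**
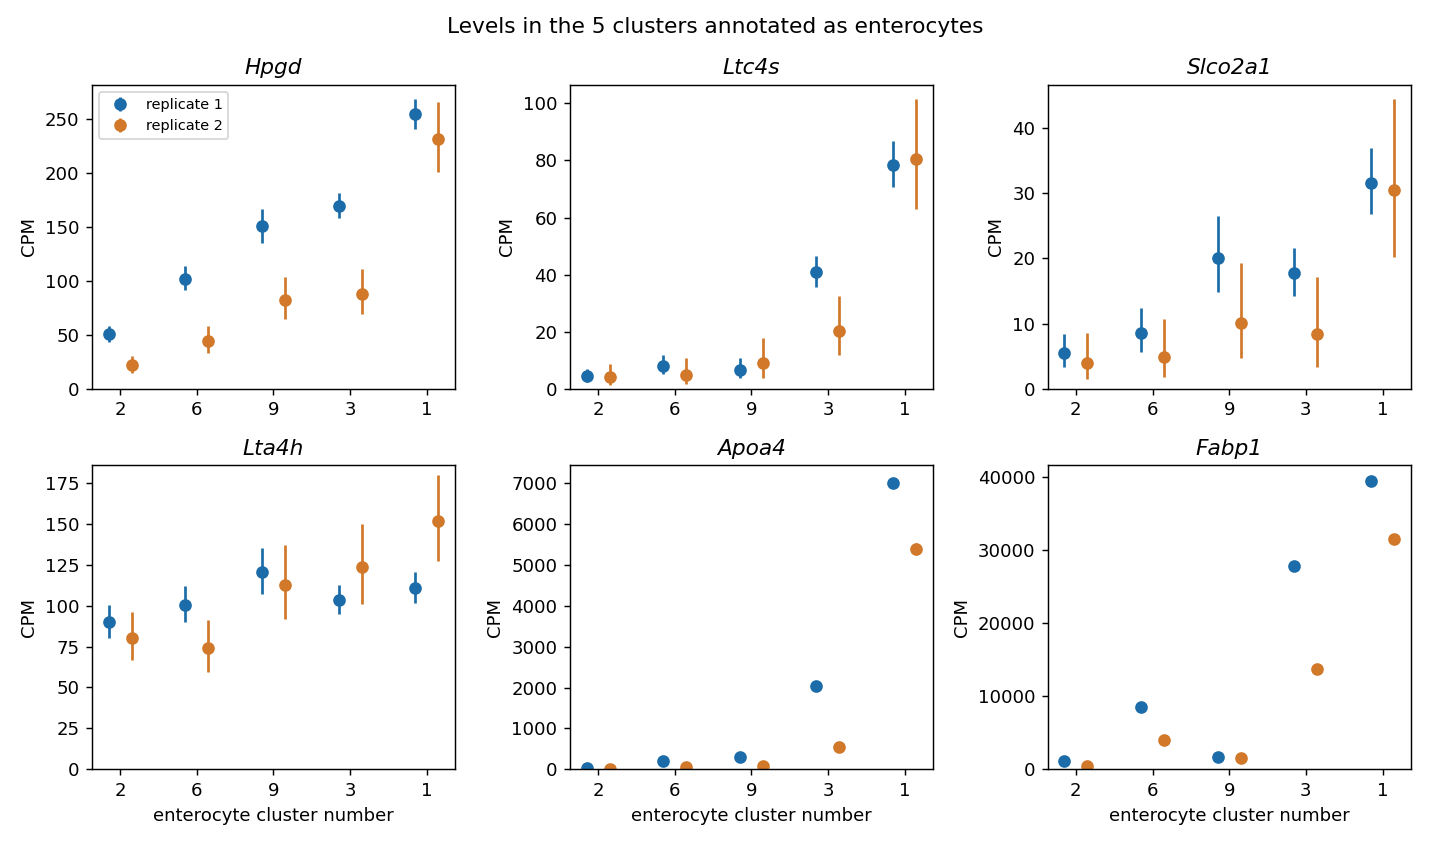
Levels (CPM, 95% Poisson intervals) of Hpgd, Ltc4s, the prostaglandin transporter Slco2a1, the leukotriene A4 hydrolase Lta4h and the enterocyte genes Apoa4 and Fabp1 in the 5 enterocyte clusters, 1 point per mouse. Hpgd, Ltc4s and Slco2a1 are highest in cluster 1 and lowest in cluster 2 in both mice.

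Between the 2 mice, Hpgd was higher in replicate 1 in 9 of 10 cell types and lower in tuft cells alone. Pla2g4a was higher in replicate 1 in 9 of 10 types and lower in enterocytes, where it had 5 and 3 UMIs. For the other members with UMIs the direction varied by type, with Alox5ap higher in replicate 1 in 6 types and in replicate 2 in 4. In tuft cells the leukotriene genes were higher in replicate 2 (1.54-fold for Alox5, 1.501-fold for Alox5ap and 1.46-fold for Ltc4s), whereas Hpgds and Pla2g4a were higher in replicate 1 (1.73-fold and 1.99-fold). Each mouse gave 1 library, so mouse, library and depth cannot be told apart, and no test of the mice was possible.

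Other genes of the pathway were followed from a list of 66, of which 65 were in the matrices and 34 had enough UMIs to be tested. In tuft cells 10 of the 34 were higher than the mean of the other types, against 9.65% of all genes tested, and 1 was lower, against 3.48%, with a median log2 difference of 0.46 against 0.03 over all genes tested. Mgst3, a microsomal glutathione S-transferase related to Ltc4s, was at 3308 and 3472 CPM in tuft cells, against 1237 and 1439 CPM in enterocytes. Its tuft difference was 3.16 on the log2 scale (SE 0.18, adjusted p = 4.24e-09, edgeR). Slco3a1, a transporter that carries prostaglandins, was at 67.7 and 62.5 CPM in tuft cells, with a log2 difference of 2.54 (SE 0.31, adjusted p = 9.07e-08, edgeR). Cbr3, a carbonyl reductase, had the largest fitted difference among the 10 (4.67, SE 0.94, adjusted p = 0.000523, edgeR) on 14.5 and 10.7 CPM. Pla2g16, another phospholipase, Cbr1, Akr1b3, Ptgr2, Cyp2j6, Cyp4f13 and Cyp4f14 were the other 7 higher genes, and Ptgr1, a reductase that inactivates leukotriene B4, was the lower gene (-0.87, adjusted p = 0.0429).

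By role, the tuft count was 1 of 7 phospholipases, 1 of 5 leukotriene and lipoxygenase genes, 2 of 7 terminal prostanoid synthases, 5 of 9 breakdown genes and 1 of 5 transporters, where 9.65% of all genes tested were higher, so that a count of 1 in a role this small is not set apart from it. Lta4h, whose product is leukotriene B4, was at 33.9 and 26.8 CPM in tuft cells and 105 and 103 CPM in enterocytes, and its tuft difference did not pass (-0.72, adjusted p = 0.0972). Ggt1, which trims glutamate from leukotriene C4, had 0 UMIs in tuft cells of both mice. Of the 15 receptor genes, only Ptger4, a receptor for prostaglandin E2, had enough UMIs to be tested.

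In enterocytes 23 of the 34 were higher than in the mean of the other types, against 30.4% of all genes tested, and 6 were lower, against 18.9%, with a median log2 difference of 2.10 against 0.05 over all genes tested. The higher genes took in all 5 tested leukotriene and lipoxygenase genes, all 9 breakdown genes, 5 of 7 terminal prostanoid synthases, 2 of 7 phospholipases and 2 of 5 transporters, the last 2 roles near that share of all genes. Ggt1 and Dpep1, the enzymes that convert leukotriene C4 stepwise into D4 and E4, were at 283 and 132 CPM and at 215 and 159 CPM in enterocytes. Their log2 differences were 8.38 (SE 0.24, adjusted p = 3.81e-22, edgeR) and 8.004 (SE 0.24, adjusted p = 9.16e-23). Slco2a1, the transporter that takes up prostaglandins for Hpgd to inactivate, was at 17.8 and 10.3 CPM and higher by 2.86 (SE 0.35, adjusted p = 2.23e-08). Akr1b7 (6.49), Cyp4f14 (5.95), Ephx2 (4.99), Abcc2 (4.62) and Pla2g12b (4.17) were further higher genes, and Lta4h was higher by 1.81 (SE 0.14, adjusted p = 2.23e-13). Slco3a1 (-3.17), Abcc1 (-2.68), Pla2g12a (-1.59), Akr1b3 (-1.33), Ptger4 (-0.90) and Ptges3 (-0.31) were lower. Against TA cells, 21 of the 34 were higher and 5 lower, against 27.1% and 20.6% of all genes tested.

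**Figure D5:**
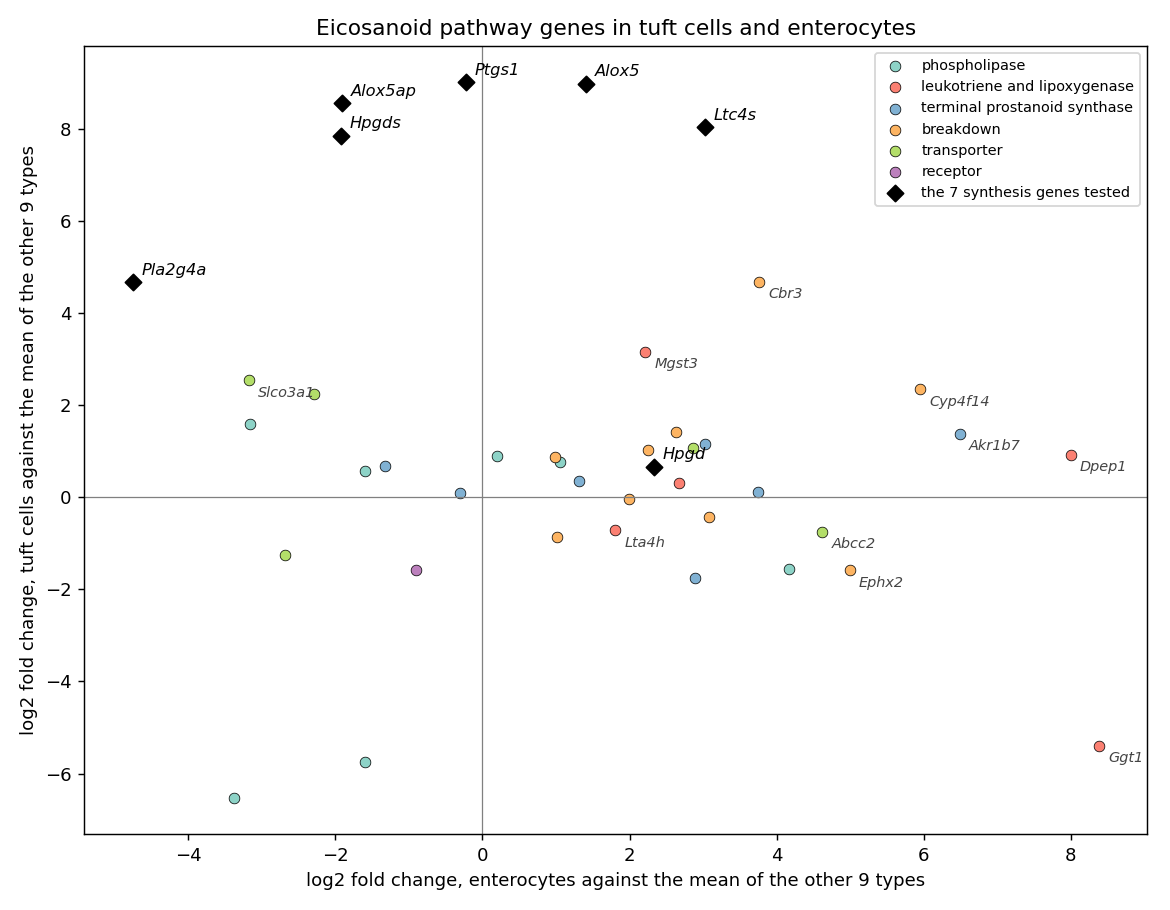
Log2 fold change in tuft cells (y axis) against that in enterocytes (x axis), each relative to the mean of the other 9 types, for the 7 tested members (black diamonds) and the 34 other pathway genes tested (circles, coloured by role). The 6 tuft-high members lie high on the tuft axis, while most breakdown and leukotriene-processing genes lie to the right, and both axes share samples, so the spread of points is a description.

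The genes whose levels across the 20 sums were most like each member were named by Pearson's r of log2(CPM + 1). Here CPM was scaled by the TMM factors, which raise the values of the Paneth sums. The r describes sums that share 2 libraries and differ in depth. For Alox5 they were Ankrd63, Pate4 and Kcnd3 (each r = 0.98), and for Alox5ap Matk, Plcb2 and Pik3cg (each r = 0.96). For Ptgs1 they were Adcy5 (0.96), Folr1 (0.95) and Mn1 (0.95), and for Hpgds Lrmp (0.94), Cd300lf (0.93) and Pea15a (0.91). Ltc4s was nearest to Fbxl21 (0.89), 1810046K07Rik (0.88) and Inpp5b (0.87), Hpgd to Hexa (0.92), Tmem125 (0.92) and Ergic2 (0.91), and Pla2g4a to Trmt13 (0.88), Senp6 (0.86) and H3f3a (0.85). Among the members, Alox5ap and Hpgds had r = 0.92, as did Alox5 and Ptgs1, whereas Hpgd and Hpgds had r = -0.32.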

How the data were processed

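Per the labels and the methods of the study, the authors aligned reads to mm10 with Cell Ranger 3.0.1, removed free RNA with SoupX (for which matrices is not stated), discarded cells under 1500 genes or over 25% mitochondrial reads and doublets called by scDblFinder, and clustered the cells in Seurat together with wild-type cells. They deposited UMI counts per gene and cell, a sctransform score, which was not used, and the mitochondrial percent of each cell. Annotations were joined by cell order to the count table of the whole study, where 3275 of 3275 cells had equal UMI totals. The cells were then found in the matrix of each library by barcode. Their totals there differed from that table by a median of 1 UMI and by at most 262. The study tables also hold 2937 cell columns of another series, which were left out.

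Counts were summed per mouse and type, filtered with filterByExpr, scaled with TMM and fitted with edgeR 4.0.16 (R 4.3.3, robust quasi-likelihood). Sums with the same replicate number come from the same animal, so mouse was a term. Residual degrees of freedom were 9. With mouse as a term, the overall difference between the 2 mice is taken out. The p-values set each difference against how far these 2 mice still differ from type to type, pooled over the types. For each gene, edgeR draws that spread towards a trend over all genes tested, by an amount that differs by gene. A p-value therefore rests in part on the spread of other genes and not on these 2 mice alone. Each SE was worked back from the fit, as the absolute log2 difference divided by the square root of the test's F statistic. It restates the test and is not a separate estimate of spread. Where types hold no UMIs of a gene it can lose its meaning. For Hpgds in enterocytes it came to 79.3 on a log2 difference of -1.92. In data simulated for the tuft comparison over 11402 genes, 24 of 100 genes changed 2-fold and 61 of 100 changed 4-fold were recovered, with 5 unchanged genes called. The simulation gave all genes the same fixed dispersion, no mouse effect and no difference between types apart from the tuft changes. Its counts describe that simpler setting and not the real sums. Intervals are exact at 95% (Poisson for CPM, binomial for shares) and cover counting error only. Cells were thinned to 5000 UMIs by sampling without replacement. DESeq2 1.42.0, other filters, scalings and cell sets were tried as alternatives. Gene positions come from GENCODE M21 on GRCm38 and promoters from RefSeq GRCm38.p6. The pathway genes named are those past the threshold, with members in full, and the 3 most like genes were taken over genes tested. The members and lists were chosen with earlier results of these data known.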

Additional observations from a re-analysis of the deposited data

Results flagged for a closer look

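Barcodes that the authors did not keep as cells also carried members, above the 3 counts that a count of 0 allows. In replicate 1, the 5583 such barcodes held 43 UMIs of Alox5, 261 of Alox5ap, 291 of Ltc4s, 51 of Ptgs1, 147 of Hpgds, 1030 of Hpgd and 138 of Pla2g4a among 20287851 UMIs. In CPM these were 2.12 for Alox5, 12.9 for Alox5ap, 14.3 for Ltc4s, 2.51 for Ptgs1, 7.25 for Hpgds, 50.8 for Hpgd and 6.80 for Pla2g4a. In replicate 2, the 58 such barcodes held 35 UMIs of Hpgd (23.2 CPM) and at most 3 of any other member. The authors' filters removed doublets and cells with few genes or many mitochondrial reads, so these barcodes have no cell type, and no comparison used them.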

How the results depend on the processing

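Of 347 repeated values, 306 kept their direction and their side of the threshold or stayed within the spread. The 6 tuft-high members passed in 11 of 11 tested alternatives, except Alox5 in 10 of 11. Genes called in tuft cells numbered 1497, and 878 without the mouse as a block and 2569 with the other cells pooled. In enterocytes 5620 became 3392 with thinned cells, and against TA cells 5441 became 2626 without the block and 3578 with thinned cells. The share of calls that were higher in tuft cells was 73.5%, and 62.6% without IEL and 40.7% pooled. In enterocytes it was 61.6%, and 50.8% by DESeq2's Wald test and 46.9% pooled. Without the block, no call in tuft cells changed for a member, Alox5ap was called lower in enterocytes (-2.12, adjusted p = 0.0384), and no other member's call changed.

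In tuft cells, Alox5 missed the threshold by DESeq2's Wald test (7.73, adjusted p = 0.150), and Hpgd was -0.47 pooled and from -0.64 to 2.36 with either mouse left out. In enterocytes, Ltc4s was 0.26 pooled, and Pla2g4a missed the threshold with thinned cells (-4.02) and with the stricter cell filter (-3.40). Alox5, uncalled at 1.41, was -0.58 by the Wald test, -0.12 with the stricter filter, -2.02 pooled, -1.77 without cells with tuft RNA and from -1.06 to 0.14 with either mouse left out. Alox5ap was also called lower by the Wald test (-2.55), with no filter on low counts (-1.83) and without cells with tuft RNA (-3.80), Hpgds by the Wald test (-2.41) and pooled (-4.09), and Ptgs1 pooled (-3.47). Ptgs1, uncalled at -0.22, was 0.24 without IEL and 0.0499 with the stricter filter. Against TA cells, Alox5 was -0.22 by the Wald test, -0.39 thinned, -1.14 with the stricter filter, -1.22 without cells with tuft RNA and from -1.39 to 0.98 with either mouse left out. There Alox5ap was called lower with the stricter filter (-2.44) and ran from -2.56 to 0.48 and Hpgds from -1.62 to 0.56 with either mouse left out, and Hpgds was 0.82 without cells with tuft RNA. The level of Ptgs1 in tuft cells was 146 CPM thinned. Without thinning, the mean shares of cells were 50.3% for Alox5, 96.2% for Alox5ap, 61.9% for Ptgs1, 94.9% for Hpgds, 69.1% for Pla2g4a (tuft cells) and 69.5% for Hpgd (enterocytes). Values with either mouse left out are differences of TMM-scaled log2 CPM within the other mouse, with a prior count of 2. No model was fitted to them, so their size is not comparable with that of the fitted values. The causes were not tested. Leaving out cells with tuft RNA was chosen after seeing the data. Tuft sums of 40 and 38 cells limit the depth of every tuft value.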
